A study of Mus musculus with 8 samples.

Results

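WFS1 peaks that lie far from every protein-coding gene start were described in C2C12 cells, an established mouse myoblast line. The peaks of 2 deposited lists were joined where they touched or overlapped, and an autosomal peak was kept when its centre lay over 100 kb from the annotated 5′ end of every protein-coding gene of GRCm38. This rule kept 4741 of 22292 combined peaks (21.3%), called far peaks here. Of the remaining peaks, 14472 were centred 1 to 100 kb from the nearest protein-coding 5′ end, 2807 within 1 kb, and 272 were not on an autosome. The rule used 1 5′ end per gene. Of the 4741 far peaks, 3725 were also over 100 kb from every annotated protein-coding transcript start.

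Both lists came from wildtype, proliferating myoblasts whose chromatin was crosslinked with DSG, a protein-to-protein crosslinker, followed by formaldehyde, and precipitated with an antibody against WFS1. The chromatin of the first list was sonicated for 30 cycles. The second list came from a portion of that same precipitate after 6 further cycles (36 in all). Each condition was therefore 1 library from 1 precipitation, so no test between conditions was possible, and every interval below is a 95% interval that covers counting error over peaks only. The lists hold positions alone, with no signal, score or read depth, and no expression was measured in these libraries, so the cell type was not checked against marker genes.

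WFS1 (wolframin) is a transmembrane glycoprotein of the endoplasmic reticulum, a membrane that is continuous with the nuclear envelope. A membrane protein need not touch DNA itself, and a ChIP signal after double crosslinking can also report DNA held through other proteins. Enhancers are DNA elements bound by transcription factors that act on promoters over long distances. Wide regions with few genes, called gene deserts, commonly flank genes for developmental regulators and can hold enhancers of those genes. A pair of DNA words is of use for reading peaks in myoblasts. TGACTCA is the site of AP-1, the Jun and Fos dimers that occupy many enhancers of mesenchymal cells, and CAGCTG is the E-box form preferred by MyoD and myogenin, the muscle-determining basic helix-loop-helix factors.

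The central 200 bases of 7 far peaks found in both lists are given below as the forward strand of GRCm38. Of these, 5 follow the naming rule: among far peaks in both lists the farthest, the widest, the window with the most TGACTCA and the window with the most CAGCTG, and among all far peaks of the largest run the widest. A peak of the 30-cycle list only lay farther away, and another held more CAGCTG. The Pcdh9 and Myc windows were added after their values were seen, the first as the farthest both-list peak with TGACTCA and the second as the widest one nearest to Myc. Capitals mark the AP-1 word, the E-box named above, or the word AACCACA read by RUNX factors, on either strand, except that the Atxn1 window was searched for TGACTCA and the Dyrk1a window for CAGCTG alone.
Farthest in both lists, chr14:82065523-82065722, between genes: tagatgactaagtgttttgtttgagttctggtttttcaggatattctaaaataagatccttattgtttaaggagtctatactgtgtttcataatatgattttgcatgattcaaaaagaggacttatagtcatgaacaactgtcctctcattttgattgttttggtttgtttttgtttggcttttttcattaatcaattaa
Widest in both lists, chr17:39844759-39844958, in the lincRNA gene Gm26917: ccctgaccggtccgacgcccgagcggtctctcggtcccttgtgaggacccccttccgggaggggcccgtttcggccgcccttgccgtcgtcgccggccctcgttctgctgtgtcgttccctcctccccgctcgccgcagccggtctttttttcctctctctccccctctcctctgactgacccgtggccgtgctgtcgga
Most TGACTCA in both lists, chr13:45623914-45624113, in an intron of Atxn1: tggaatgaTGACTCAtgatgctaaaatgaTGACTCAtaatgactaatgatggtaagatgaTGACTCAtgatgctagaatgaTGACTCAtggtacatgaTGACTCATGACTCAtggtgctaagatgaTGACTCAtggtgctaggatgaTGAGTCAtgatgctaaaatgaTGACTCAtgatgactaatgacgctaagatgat
Most CAGCTG in both lists, chr16:94698670-94698869, between genes near Dyrk1a: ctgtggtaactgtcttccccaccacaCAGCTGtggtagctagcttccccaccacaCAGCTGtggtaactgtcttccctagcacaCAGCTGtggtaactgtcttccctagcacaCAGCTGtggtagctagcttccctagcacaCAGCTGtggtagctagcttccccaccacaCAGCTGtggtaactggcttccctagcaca
Largest run, chr13:63108360-63108559, in an intron of 2010111I01Rik: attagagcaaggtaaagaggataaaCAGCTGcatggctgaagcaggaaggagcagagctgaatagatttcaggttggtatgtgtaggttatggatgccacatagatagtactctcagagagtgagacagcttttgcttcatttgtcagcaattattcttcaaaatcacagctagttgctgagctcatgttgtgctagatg
Pcdh9, chr14:91849280-91849479, between genes: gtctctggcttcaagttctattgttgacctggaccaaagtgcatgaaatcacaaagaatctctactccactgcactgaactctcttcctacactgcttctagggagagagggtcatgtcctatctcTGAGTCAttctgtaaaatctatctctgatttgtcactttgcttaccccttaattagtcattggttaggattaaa
Myc, chr15:62328260-62328459, in a noncoding gene: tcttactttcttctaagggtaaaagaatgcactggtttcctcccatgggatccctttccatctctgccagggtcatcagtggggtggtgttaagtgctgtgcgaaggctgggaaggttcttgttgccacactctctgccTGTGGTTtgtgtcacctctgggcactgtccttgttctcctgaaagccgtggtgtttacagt

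These windows show the range among the far peaks. The farthest window had a GC content of 28.5% and the widest 69.5%, and neither held any of the 3 marked words. The Atxn1 window held 9 copies of TGACTCA with steps of 7 to 31 bp between them, and the Dyrk1a window held 6 copies of CAGCTG at a constant step of 29 bp, so both were arrays of a short repeated unit. Many copies in 1 window were rare: 11 far peaks held 3 or more copies of TGACTCA in the central 200 bp and 15 held 3 or more of CAGCTG. The highest number of CAGCTG was 11, in a peak of the 30-cycle list only in an intron nearest to Plcl1, chr1:55524042-55524283, named after its value was seen.

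Far peaks were thinner on the ground than peaks near genes, and their density fell with every step away from genes. The bases over 100 kb from all protein-coding 5′ ends, called the far territory, measured 1036 Mb without unknown bases, or 43.2% of the autosomes. They held 4.58 peaks per Mb against 12.7 per Mb in the rest, a ratio of 0.360 (0.349 to 0.372). Far peaks lay 191 kb from the nearest protein-coding 5′ end in the median, with quartiles at 134 and 315 kb, and 151 of them (3.18%) lay beyond 1 Mb. The density was 9.99 peaks per Mb at 50 to 100 kb, 7.26 at 100 to 200 kb, 3.93 at 200 to 500 kb, 2.48 at 500 to 1000 kb and 1.75 (1.48 to 2.05) beyond 1000 kb. At the limit of 100 kb, the 5 peaks just outside it lay 99.9 to 99.995 kb from a 5′ end and the 5 just inside 100.02 to 100.1 kb.

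**Figure D1:**
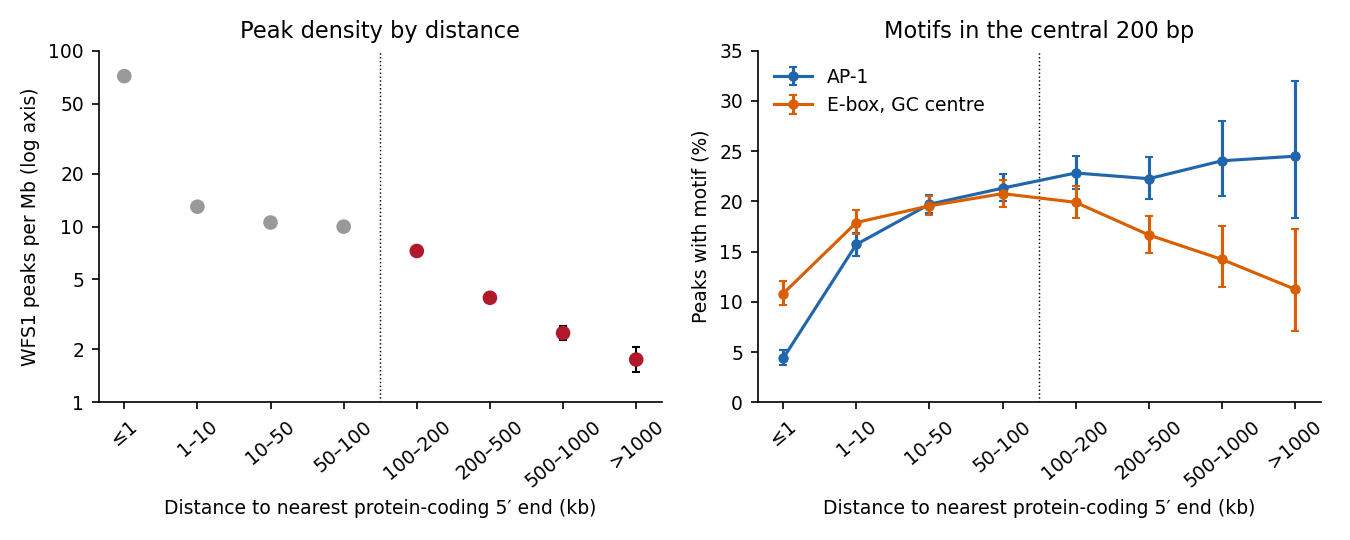
Left, WFS1 peaks per Mb (log axis) in 8 classes of distance to the nearest protein-coding 5′ end, in kb, with far peaks in red and other peaks in grey. Right, the share of peaks (%) with an AP-1 site (TGACTCA) or an E-box with a GC centre (CAGCTG) in the central 200 bp; bars are 95% intervals and the dotted line is the limit of 100 kb. The density fell from 71.7 per Mb within 1 kb to 1.75 beyond 1000 kb, and past the limit the AP-1 share stayed between 22.3% and 24.5% while the E-box share went from 19.9% to 11.3%.

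On each of the 19 autosomes the far territory had the lower density, with the interval of the ratio under 1. The ratio ran from 0.276 on chromosome 12 to 0.560 on chromosome 13. Far peaks were sparsest on chromosome 7, at 2.41 per Mb, and densest on chromosome 15, at 7.66 per Mb, a range of 3.17-fold. Chromosomes 7 and 15 were also the lowest and the highest within 100 kb of genes, at 8.55 and 21.6 peaks per Mb.

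**Figure D2:**
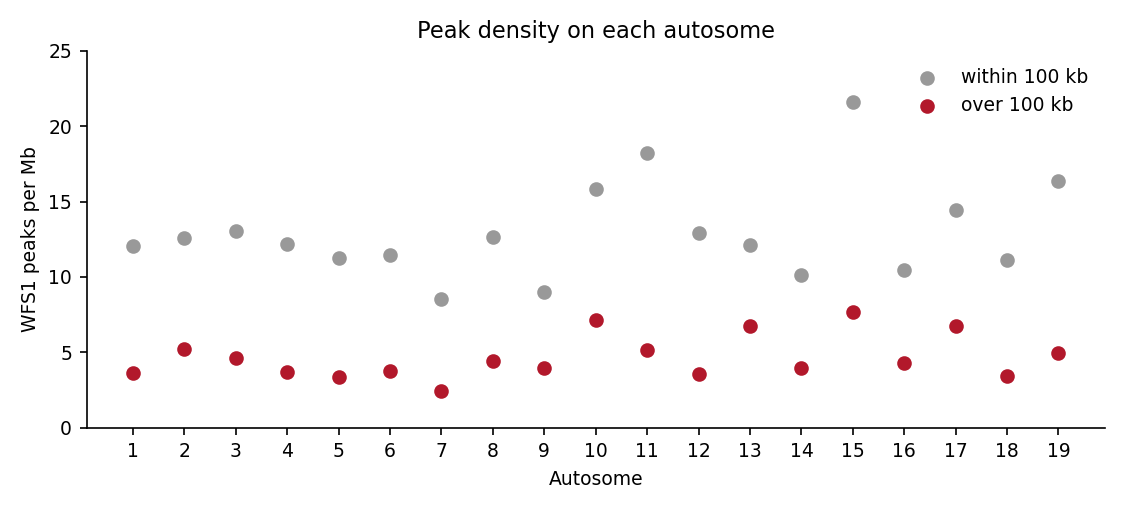
WFS1 peaks per Mb on each of the 19 autosomes, within 100 kb of a protein-coding 5′ end (grey) and beyond it (red). Red points lie under the grey point of every autosome, and chromosome 15 has the highest of both, 7.66 and 21.6 per Mb.

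Far peaks appeared in both lists at a share within counting error of that of peaks at 1 to 100 kb, and more often than those at start sites. Of the far peaks, 1805 were in both lists, 2034 in the 30-cycle list only and 902 in the 36-cycle list only. The share in both was 38.1% (36.7 to 39.5), beside 35.4% of all combined peaks. It was 37.5% at 1 to 100 kb, a difference of 0.572 percentage points (-1.01 to 2.17), and 21.8% within 1 kb, a difference of 16.3 points (14.2 to 18.3). The 30-cycle list held 3902 far peaks and the 36-cycle list 2829, which was 21.3% and 22.3% of each list.

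Width went with presence in both lists. Far peaks were 380 bp wide in the median (quartiles 275 and 590), and those in both lists were 646 bp wide against 321 bp for peaks of the 30-cycle list only and 252 bp for the 36-cycle list only. Among far peaks under 300 bp, 3.10% were in both lists, a share that rose to 29.6% at 300 to 500 bp, 75% at 500 to 1000 bp and 97.3% from 1000 bp. Peaks at 1 to 100 kb of the same widths gave 2.88%, 29.4%, 73.6% and 97.5%. A peak joined from both lists spans both of its parts, which adds to its width.

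By base composition far peaks lay between the far territory and the nearer peaks, and few were rich in CpG, the mark of many promoters. Of their central windows 24.5% had a GC content under 40%, beside 50.2% of all tiles of 200 bp of the far territory. The median GC content of far peaks was 43.7% (43.5 to 43.9), beside 47.1% at 1 to 100 kb and 58.4% within 1 kb. Only 50 far peaks (1.05%) had a GC content over 50% together with a ratio of observed to expected CpG over 0.6. That share was 4.0% at 1 to 100 kb and 56.4% within 1 kb. With distance the median GC content of far peaks fell further, from 45.1% at 100 to 200 kb to 39.2% beyond 1000 kb.

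Repeat content was read from the soft-masked bases of the reference. More than 50% of the bases were masked in 10.3% of far peaks and 11.7% of peaks at 1 to 100 kb, a difference of -1.45 points (-2.44 to -0.412) that turned to 0.911 (-0.468 to 2.41) with a limit of 200 kb. Within the far peaks this share was 5.48% for peaks in both lists, 14.4% for those of the 30-cycle list only and 10.8% for those of the 36-cycle list only.

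Of the 13 words searched, the AP-1 site had the highest ratio of far peaks to their surroundings. TGACTCA occurred in the central 200 bp of 1082 far peaks, or 22.8% (21.6 to 24.0), and in 2.96% of all 5179429 windows of 200 bp that tile the far territory, a ratio of 7.70 (7.31 to 8.11). Windows placed 2 kb to either side of the far peaks held it in 3.6%. At 1 to 100 kb 19% of peaks held it, so far peaks were 3.81 points higher (2.47 to 5.18). The surplus was also seen with GC content held: with peaks split by the GC content of the central window, the difference was positive in each of 6 bands, with intervals above 0 in the 4 bands from 35% to 60%. Distance within the far territory made little difference to this share, which was 22.8% at 100 to 200 kb and 24.5% (18.3 to 31.9) beyond 1000 kb.

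The muscle E-box was also enriched in far peaks over the territory, and its share moved with GC content. CAGCTG occurred in 851 far peaks, or 17.9% (16.9 to 19.1), and in 6.18% of the tiles, a ratio of 2.90 (2.73 to 3.08). With GC content held the ratio was lower, 2.00 to 2.72 in the 6 bands. Windows placed 2 kb to either side of the far peaks held it in 7.90%. Peaks at 1 to 100 kb held it in 19.4%, a difference of -1.45 points (-2.70 to -0.167). The sign turned with a limit of 50 kb, where the difference was 0.185 (-0.934 to 1.31). In the 5 bands of GC content from 35% upward far peaks had the higher share, by 0.497 to 7.07 points, each with an interval that spans 0. The share fell with distance, from 19.9% at 100 to 200 kb to 14.2% at 500 to 1000 kb and 11.3% (7.15 to 17.3) beyond, beside the fall in GC content given above. Both words together stood in 205 far peaks (4.32%).

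**Figure D3:**
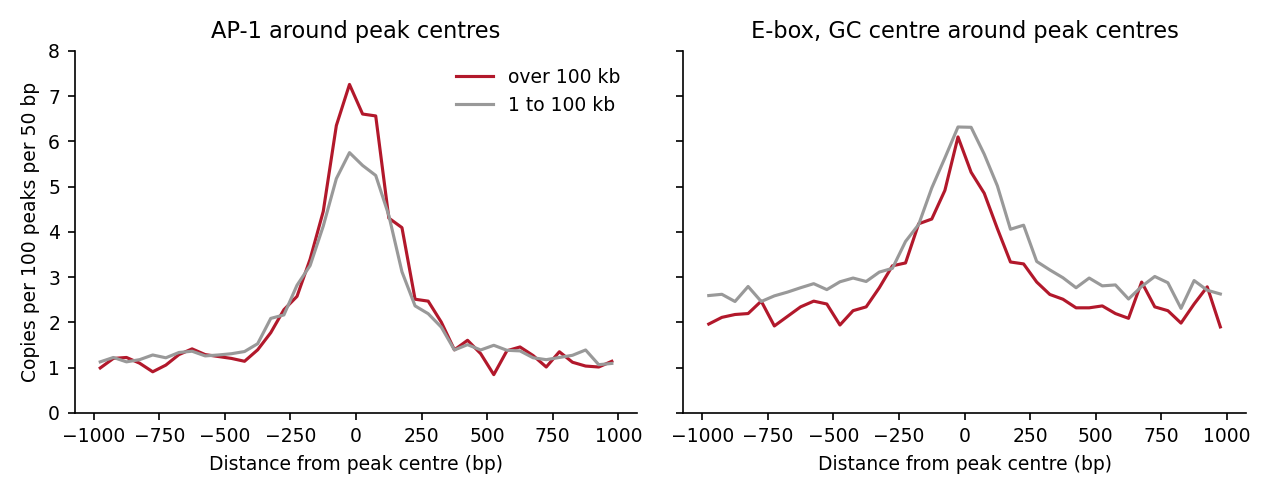
Copies per 100 peaks in bins of 50 bp by distance from the peak centre in bp, for the AP-1 site (TGACTCA, left) and the E-box with a GC centre (CAGCTG, right), in peaks over 100 kb (red) and at 1 to 100 kb (grey) from a protein-coding 5′ end. In far peaks the AP-1 site reached 7.26 copies per 100 peaks at the centre beside 0.991 in the bin farthest to the left, and the E-box 6.10 beside 1.96.

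Other words were searched on both strands in the same way, 13 in all. The RUNX site AACCACA occurred in 12.1% of far peaks, 2.78 times its share of tiles. The TEAD site GGAATG, read by the partners of YAP, occurred in 18%, 1.62 times its share of tiles and 2.07 points above the peaks at 1 to 100 kb (0.837 to 3.33). In the bands of GC content from 40% to 60% this difference was 2.85 to 4.72 points, with intervals above 0. In the bands under 40% and from 60% it was negative, with intervals that span 0. The E-box CAGATG occurred in 20.8%, 1.42 times its share of tiles. The E-box CAGGTG, a form read by ZEB and SNAI repressors, was the opposite case, with 8.63% of far peaks against 10.3% of tiles. It was below the tiles in each of the 6 bands of GC content. The masked share of the tiles was not counted, and the part of repeats in this difference was not tested. TAATTA, the core read by homeodomain proteins, occurred in 5.61% of far peaks against 8.43% of tiles. This AT-rich word was not below the tiles throughout with GC content held. Its ratio was 1.13 under 35%, 0.822 at 35 to 40% and 0.887 at 40 to 45%. It was 1.35 at 45 to 50%, 1.55 at 50 to 60% and 0 from 60%, a band of 79 far peaks. The forkhead word TGTTTAC had a ratio to tiles of 1.01 (0.863 to 1.18). The NFI word TTGGCA occurred in 13.1% of far peaks, 1.32 times its share of tiles. The GATA word AGATAA occurred in 13.3% against 14.7% of tiles. It was 3.10 points above the peaks at 1 to 100 kb (2.03 to 4.20). With GC content held the interval of that difference spans 0 in each band under 60% and is above 0 from 60%. GGGCGG, read by SP and KLF factors at many promoters, occurred in 3.25% of far peaks, 2.80 times its share of tiles (2.39 to 3.26). With GC content held this ratio was lower: 0 under 35%, 0.639 at 35 to 40% and 1.43 to 1.74 in the bands from 40%. Peaks at 1 to 100 kb held it in 6.05%, and in each band of GC content the interval of the difference from far peaks spans 0. CCGGAAG of the ETS factors occurred in 0.717%, 1.76 times its share of tiles (1.26 to 2.45), beside 1.31% at 1 to 100 kb. With GC content held its ratio to tiles was not above 1 throughout. The ratio was 0 under 35%, 0.705 at 35 to 40% and 0.803 at 40 to 45%. It was 1.48 at 45 to 50%, 1.29 at 50 to 60% and 0.470 from 60%. The core of the CTCF motif occurred in 47 far peaks (0.991%), beside 1.84% at 1 to 100 kb. A word in a window is a match of letters and not a measured binding site.

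**Figure D4:**
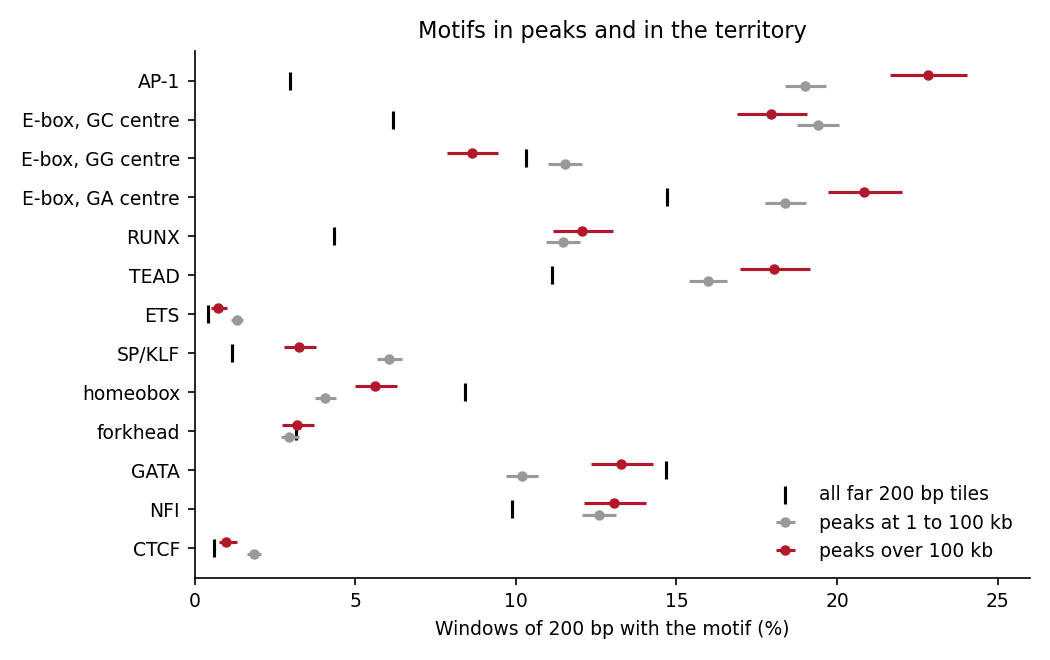
Share of 200 bp windows (%) that hold each of 13 sequence words, named by factor family, in the central windows of far peaks (red), of peaks at 1 to 100 kb (grey) and in all tiles of the far territory (black ticks); bars are 95% intervals. Far peaks stand farthest to the right of the tiles for the AP-1 site, 22.8% against 2.96%; for the homeobox core they stand to the left, 5.61% against 8.43%, a position that is not held in every band of GC content.

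Far from protein-coding starts does not mean outside genes. By their centres, 2431 far peaks (51.3%) lay between annotated genes, 1669 (35.2%) in introns of protein-coding genes, 551 (11.6%) in noncoding genes, 66 (1.39%) in protein-coding exons and 24 (0.506%) in other annotated genes such as pseudogenes. Measured per Mb of far territory of the same kind, introns held 5.98 peaks, noncoding genes 7.08 and exons 9.48, against 3.66 between genes. The ratios to the space between genes were 1.64 (1.54 to 1.74) for introns, 1.94 (1.76 to 2.12) for noncoding genes and 2.59 (2.00 to 3.31) for exons.

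Few far peaks sat at the start of a noncoding gene. Within 1 kb of such a 5′ end were 147 far peaks (3.10%), 82 of them at lincRNA genes, 59 of them in both lists and 11 of them CpG-rich. At 1 to 100 kb the share was 4.37%, so far peaks differed by -1.27 points (-1.85 to -0.651). The 5 both-list far peaks closest to a noncoding start were centred 11 bp from Gm47785, 20 bp from Gm30246, 24 bp from Gm37355, 27 bp from Gm13816 and 30 bp from Sox5it. The first, chr9:33901630-33902225, lay 584 kb from any protein-coding 5′ end. None of these 5 was CpG-rich: their ratios of observed to expected CpG were 0.0806 to 0.255.

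MicroRNA genes were among the noncoding genes with a far peak close by. MicroRNAs are short RNAs that pair with target messages through a seed, bases 2 to 8, and repress them. Within 1 kb of the 5′ end of 10 annotated hairpins lay 12 far peaks, 5 of them in both lists. Hairpins without a far peak were not counted, so these numbers do not measure an enrichment. The mature sequences of the hairpins of the miR-29, miR-30, miR-199 and miR-125 families are given from RefSeq (GRCm38.p6, where 8 of the 10 hairpins were found) with the seed in capitals, since the peaks lay beside or over them; these 4 were chosen after the peaks were seen.
mmu-miR-29a-3p, chr6:31062673-31062694, minus strand: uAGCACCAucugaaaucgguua
mmu-miR-30a-5p, chr1:23272274-23272295, plus strand: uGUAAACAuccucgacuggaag
mmu-miR-199a-5p, chr1:162217844-162217866, plus strand: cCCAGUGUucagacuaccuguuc
mmu-miR-199a-3p, chr1:162217883-162217904, plus strand: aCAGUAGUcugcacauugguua
mmu-miR-125b-5p, chr9:41581940-41581961, plus strand: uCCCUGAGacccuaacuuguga

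The peak beside Mir29a, whose product targets collagen messages, covered chr6:31061925-31062441 and was in both lists. It stopped short of the hairpin. Mir30a also had a both-list peak, chr1:23270901-23271733, centred 952 bp from its 5′ end. The Mir199a-2 hairpin sequences lay inside a 263 bp peak of the 36-cycle list only, chr1:162217697-162217959, with a peak of the 30-cycle list only next to it. Mir125b-1 had 2 peaks of the 36-cycle list only, and chr9:41581862-41582364 covered its mature sequence. A hairpin's 5′ end is not the start of its primary transcript, and microRNA levels were not measured.

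Far peaks had fewer close neighbours than peaks nearer to genes, yet part of them stood in dense runs. Another combined peak was centred within 10 kb of 45.3% of far peaks and of 57.9% of peaks at 1 to 100 kb, a difference of -12.6 points (-14.2 to -10.9). Chained by gaps of at most 20 kb, far peaks formed 2952 runs. Of the far peaks, 2044 (43.1%) stood alone and 703 (14.8%) stood in 102 runs of 5 or more.

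The largest run held 18 far peaks in 67.7 kb, chr13:63087815-63155484, inside 2010111I01Rik, an aminopeptidase gene. Of its peaks, 8 were in both lists, 7 in the 30-cycle list only and 3 in the 36-cycle list only, and 1 held TGACTCA. The next run held 17 peaks in 69.2 kb, chr6:31061925-31131083, from the peak beside Mir29a across Mir29b-1 and into the lincRNA gene Lncpint, with Klf14 as the nearest protein-coding gene. Here 11 peaks were in both lists and the widest measured 2360 bp. The third run, with 16 peaks in 37.2 kb, chr13:63240779-63278025, lay farther along 2010111I01Rik, and none of its peaks held TGACTCA in the central window.

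Run size and the AP-1 site moved in opposite directions over all far peaks. TGACTCA occurred in 25.1% (23.3 to 27.0) of far peaks that stood alone, in 22.3% in runs of 2 to 4 and in 17.8% (15.1 to 20.8) in runs of 5 or more. The difference between the last class and the first was -7.32 points (-10.6 to -3.80). AACCACA went the same way, from 13.5% to 7.97%, whereas CAGCTG differed by 0.133 points (-2.99 to 3.5). Peaks in runs of 5 or more were wider (437 against 350 bp in the median), more often in both lists (44.8% against 32.1%) and had a higher median GC content (45.4% against 42.9%), and the part of these in the difference was not tested. Among both-list peaks alone TGACTCA occurred in 28.8% of single peaks and 22.5% of those in runs of 5 or more. These run classes were compared after their values were seen.

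Far peaks were spread unevenly over genes. Of 4040 protein-coding 5′ ends with far territory of their own, 1578 (39.1%) were the nearest 5′ end of at least 1 far peak, and 70 were nearest to 10 or more. The 10 with the most together took 243 far peaks, or 5.13% of them, on 1.12% of the far territory. Nearest is a statement of distance and does not name the gene a region acts on.

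Of these 10 genes, 4 encode well-known transcriptional regulators. Cited2, a coregulator that binds CBP and p300, had 38 far peaks, 16 of them in both lists, all upstream at 125 to 1282 kb. Zeb2, a repressor of epithelial genes, had 26, also all upstream, at 163 to 1481 kb. Sox9, the chondrogenic factor, had 20, of which 7 were upstream. Myc, the growth regulator, also had 20, all downstream at 237 to 905 kb, with 9 in both lists.

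Cdh18, a cadherin of neural tissue, had the most of all genes, 42 far peaks at 184 to 1410 kb with 16 in both lists. Of its 42 peaks, 4 held TGACTCA, and 6 of the 38 of Cited2 did, beside 22.8% of all far peaks. Over the 10 genes the share ran from 1 of the 17 peaks of Adamts6 to 6 of the 21 of Jmjd1c. Efna5, an ephrin ligand, had 17 far peaks in 2.04 Mb of territory. Jmjd1c, of the histone demethylase family, had 21, all upstream. The other 3 genes of the 10 had little far territory but many peaks in it: 2010111I01Rik 21 in 0.166 Mb, Gadd45g, a growth arrest gene, 21 in 0.242 Mb and Adamts6, a metalloprotease, 17 in 0.152 Mb.

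By gene bodies the order differed. Far peaks were held by 573 protein-coding genes, led by 2010111I01Rik with 37, of which 18 were in both lists. Pde4d, a cAMP phosphodiesterase of 1504 kb, held 24. Gm20388, an annotated locus of 4435 kb, held 16, and Bcar3 and Zfhx3 held 15 each. Zfhx3 encodes a large zinc finger homeodomain protein, and 2 of its 15 were centred in exons.

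Gene groups were compared by far peaks per Mb of their own far territory, since neuronal genes own much more of it than muscle genes. This does not hold distance equal. The median far territory per gene was 0.0712 Mb in the muscle list and 1.28 Mb in the neuronal list. Peak density itself fell from 7.26 per Mb at 100 to 200 kb to 2.48 at 500 to 1000 kb. The part of distance in the differences between lists was not tested. The lists were written from gene function with earlier results of these data known. Over all 4040 ends the density was 4.58 per Mb, and 39.1% were nearest to a far peak. The shares of genes with a far peak were not adjusted for the territory of each gene. Of the developmental transcription factors with far territory, 41 of 65 (63.1%, 50.9 to 73.8) were nearest to a far peak. The list had 7.78 peaks per Mb (6.83 to 8.83), led by Zeb2, Myc and Sox9. The median gene of that list had 2.63 per Mb, so the pooled value rests on a part of its members. Of the secreted signals and their receptors 25 of 50 (50%, 36.6 to 63.4) were nearest to a far peak, an interval that holds the share of all ends. The list had 8.42 per Mb (6.82 to 10.3), and the median gene had 1.60 per Mb. Inhba, the activin A subunit, had 15 far peaks, Tgfb2 14 and Fgf9 6.

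Skeletal muscle genes had the highest density of the 5 lists, on the smallest territory, with an interval that overlaps those of the matrix and the signal lists. Only 16 of 60 had any far territory, 2.67 Mb in all. Of these, 9 (56.25%, 33.2 to 76.9) were nearest to a far peak, an interval that holds the share of all ends. The list had 13.1 per Mb (9.12 to 18.2) with a median gene at 12.7. Eya4, a transcriptional cofactor of early myogenesis, had 9 far peaks, its relative Eya1 had 5, and Lama2, the laminin chain of the muscle basement membrane, had 5. Matrix and cytoskeletal genes of mesenchymal cells gave 20 of 28 (71.4%, 52.9 to 84.7). That list had 9.31 per Mb (7.42 to 11.5) with a median gene at 9.61. Adamts5 and Thbs1, a protease and a secreted glycoprotein of the matrix, had 12 far peaks each, and Col3a1, a fibrillar collagen gene, had 8, all upstream at 268 to 291 kb.

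Neuronal adhesion and guidance genes went the other way. With 92.6 Mb of territory, 44 of 67 (65.7%, 53.7 to 75.9) were nearest to a far peak. Yet the density was 2.18 per Mb (1.89 to 2.50), with a median gene at 1.15. Without Cdh18 the density of the neuronal list was 1.77 per Mb (1.51 to 2.07). Over all 4040 ends the median gene had no far peak. Flrt2 had 14 far peaks and Slitrk1 had 11. Counted over both-list peaks, 23 of 67 neuronal genes had one, beside 8 of 16 muscle genes and 907 of all 4040 ends.

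**Figure D5:**
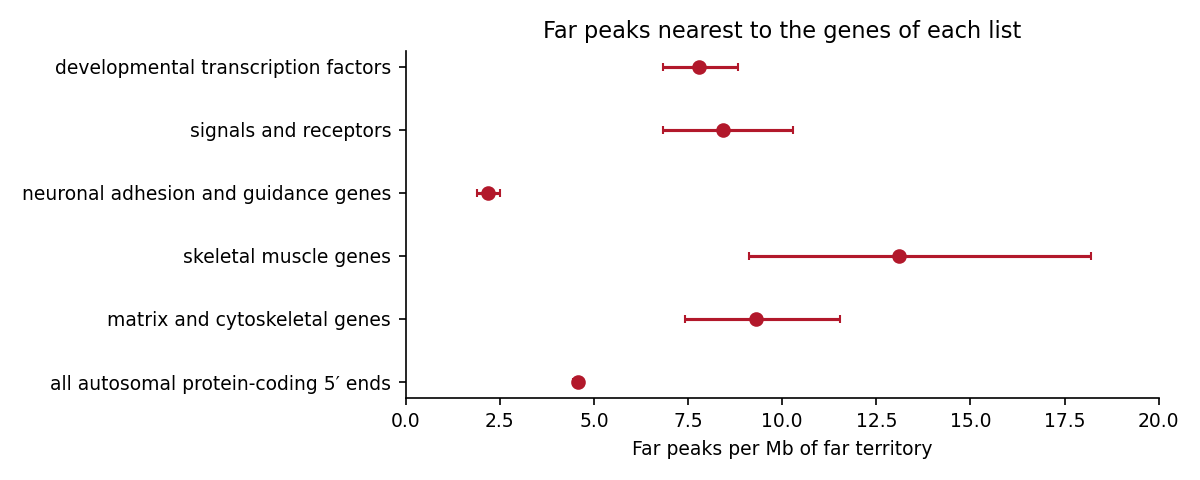
Far peaks per Mb of far territory nearest to the genes of 5 lists and to all autosomal protein-coding 5′ ends; points are the pooled density of the list and bars 95% Poisson intervals. Muscle genes stand at 13.1 and neuronal adhesion and guidance genes at 2.18, on either side of 4.58 for all ends. Distance from the 5′ ends was not held equal between lists.

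Stretches of far territory also differed among themselves. They are bounded by 5′ ends and not by whole genes, so they can hold gene bodies. The far territory fell into 2526 stretches, of which 48.1% held a far peak. Among the 276 stretches of at least 1 Mb, 56 held none and the median density was 1.31 per Mb. The stretches named here were chosen after their values were seen. The densest lay between the 5′ ends of Myc and Gsdmc, with 32 far peaks at 19.7 per Mb. The next lay between those of Cdh18 and Basp1, with 49 at 18.4 per Mb, and begins inside the Cdh18 gene. Both are on chromosome 15, the densest autosome. Then came the stretch from Klf4, a pluripotency and differentiation factor, to Gm26657, with 18 peaks at 17.9 per Mb on chromosome 4. At the other end, 4.80 Mb between Cntnap5b and Cdh20 held no far peak, and 3.17 Mb between Cdh8 and Cdh11 held none.

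Of the 5 most remote far peaks, 3 were under 300 bp wide. The farthest, chr8:51234901-51235142, lay 2277 kb from Aga, was 242 bp wide and was in the 30-cycle list only. The next, chr14:82064826-82066420, was 1595 bp wide, in both lists and 2082 kb from Olfm4. The other 3 of the 5 farthest lay near Pcdh20, Pcdh9 and G6pd2 at 2007 to 2071 kb, and of these the Pcdh9 peak, chr14:91848941-91849818, was in both lists.

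The widest far peaks were all in both lists. The widest of all, chr17:39842959-39846758, was a single peak in each list, 3800 bp wide after 30 cycles and 3773 bp after 36, with a GC content of 67.6% in the lincRNA gene Gm26917. The next, chr15:6056413-6060208, measured 3796 bp, lay 241 kb from Dab2 and was joined from 2 peaks of each list. The other 3 measured 2836 to 2993 bp: chr12:10513498-10516490 near Rdh14, chr15:33905817-33908785 near Mtdh and chr11:62146303-62149138 in an intron of Specc1. Their GC contents were 41.7% to 44.4%, close to the median of far peaks. No list of artefact-prone regions was used to remove peaks. The Gm26917 peak, with a GC content far above that median, was not checked for reads from repeated copies of its sequence.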

How the data were processed

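WFS1 ChIP-seq was analysed from peak lists of 2 of the 8 libraries of the series. Left out were the 4 input libraries and both ChIP libraries of knockout cells carrying FLAG-tagged WFS1. As deposited by the authors, the lists rest on NextGenMap alignments to GRCm38 filtered with samtools for a mapping quality of at least 10. MACS2 was run on each library by itself at a q threshold of 0.05. Its control is not given in the sources used here. A list row holds a peak's chromosome and borders only (18283 rows after 30 cycles, 12674 after 36), with no score, so the depth is unknown.

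Peaks of the lists were joined as bedtools merge does, and a joined peak that held peaks of both counted as found in both. Genes were those of GENCODE mouse release 21 (Ensembl 96), with 1 5′ end per gene, whereas the study names a later release. Words were searched on both strands in the central 200 bp; overlapping matches were each counted. The background was every tile of 200 bp without unknown bases whose centre lay in the far territory, also within bands of GC content, which were made finer than the planned bins of 10 percentage points between 35% and 50%. Shares have Wilson intervals, differences of shares Newcombe intervals, densities exact Poisson intervals and ratios of densities exact conditional intervals (scipy 1.17.1, pandas 2.3.3, numpy 2.4.6). No p-value was computed. Functions were tested on simulated data.

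The peaks, gene lists and words were chosen with earlier results of these data known. Named were the 5 farthest and 5 widest peaks, the 3 largest runs, the 10 nearest genes and the 5 gene bodies with the most far peaks, up to 5 noncoding starts, and 3 genes per list; other names are said to be chosen after their values were seen. Alternatives changed the distance limit, the start sites, the list, the joining gap, the overlap, the motif window and the peaks entered, and left out chromosome 15.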

Additional observations from a re-analysis of the deposited data

How the results depend on the processing

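Most values move with the distance that defines a far peak, and 63 of the 104 alternative values stayed within the interval of the reported value, or within 1.5 times a reported count. With a limit of 50 kb there were 8235 far peaks, the density ratio was 0.436, the median GC content 44.7%, 46.5% lay between genes, the difference in neighbours within 10 kb was -8.56 points, and that in CAGCTG turned from -1.45 to 0.185 points. With 200 kb the values were 2240 peaks, 0.279, 42.1%, 59.4%, -16.8 and -3.72, the median width was 364 bp, the difference in presence in both lists was -1.37 points, and that in peaks over 50% masked turned from -1.45 to 0.911 points. With every protein-coding transcript start 3725 far peaks were left, the density ratio was 0.325, the GC content 43.2% and the share between genes 61.9%. With 5′ ends of genes of every type 1008 far peaks were left, the GC content was 42.5%, and the differences were -2.89 points for masked peaks, 5.47 for TGACTCA and -4.50 for CAGCTG. The 30-cycle list alone gave a width of 390 bp and a GC content of 44.1%. The 36-cycle list alone gave 2829 peaks, a density ratio of 0.382, a width of 336 bp and a neighbour difference of -7.15 points. Joining peaks up to 500 bp apart gave a width of 404 bp. Over whole peaks the CAGCTG difference was -3.52 points. The TGACTCA difference was 7.12 points in peaks without a repeat base and 5.40 in peaks of both lists, and was above 0 under every alternative run. At 200 kb 14 signal and receptor genes, 4 muscle genes, 10 matrix genes and 766 of all ends had a far peak, and by peaks of both lists 23 neuronal genes and 907 of all ends did. Among alternatives added after seeing the data, peaks of both lists gave a density ratio of 0.392, and leaving out Cdh18 gave 1.77 far peaks per Mb for the neuronal list. Fewer peaks enter where the limit is wider or the list shorter, and the cause of the other shifts was not tested.

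No paired analysis was possible because the lists come from single libraries. A stricter peak threshold was not run because the lists carry no score, and leaving out a replicate could not be done with 1 library per condition.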
